A study of Rattus norvegicus with 6 samples.

Results

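The hormone, nutrient and neurotransmitter receptors through which β-cells are tuned were followed in replicating and quiescent rat β-cells. The set was chosen by name for known roles in β-cells, not by measured values, though earlier results of these data were known. It held 10 genes: *Glp1r*, *Gipr*, *Gcgr*, *Ffar1*, *Gpr119*, *Adra2a*, *Chrm3*, *Sstr3*, *Galr1* and *Casr*. They were read by 12 probes out of 45598 on the array, which named 17962 genes. *Glp1r* and *Chrm3* had a second probe, and the other 8 genes had 1 probe.

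Replicating and quiescent β-cells came from islets of young adult male Wistar rats that were cultured overnight with EdU, a thymidine analogue taken up by cells that copy their DNA. The dispersed islet cells carried Newport Green, a dye that binds the zinc of β-cells, and were fixed with paraformaldehyde before they were sorted by size, granularity and dye into EdU+ (replicating) and EdU- (quiescent) fractions. Both groups therefore shared the culture, EdU, the dye, fixation and the β-cell gate, and no animal carried a genetic change. They differed in input, because the authors collected far fewer cells, and less RNA, in the replicating fraction. The part of this difference in the ratios was not tested. Each of 3 islet preparations pooled 4 rats and gave 1 replicating and 1 quiescent sample, so n = 3 per group and single animals cannot be seen.

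All 10 receptors belong to the G protein-coupled receptors, which cross the membrane several times and pass a signal to a G protein inside the cell. Gs raises cyclic AMP through adenylyl cyclase, and Gi lowers it. Gi and Go damp secretion, and Gq activates phospholipase C, which releases calcium from internal stores. In β-cells the receptors for GLP-1, GIP and glucagon act mainly through Gs and strengthen insulin secretion when glucose is high. Adrenaline, somatostatin and galanin act through Gi and Go and restrain it.

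Values are deposited log2 signals after background correction and quantile normalization, and ratios are replicating over quiescent on the log2 scale from limma with the preparation as a block. A gene was called when its unadjusted p was at most 0.05 and its ratio at least 1 in size. No probe of the 45598 passed an adjusted p under 0.05 in limma (0% called, smallest adjusted p 0.0977), while 4379 had an unadjusted p under 0.05. Among all named genes 1011 were called higher (5.63%) and 496 lower (2.76%). The quiescent arrays were less alike than the replicating ones: r between arrays was 0.654 to 0.867 in the quiescent group and 0.967 to 0.986 in the replicating group. The quiescent array of preparation 2 stood apart, with 1583 spots marked as outliers against 252 to 299 on the other arrays. In preparations 1 to 3 the share of probes well above background was 86.5%, 80.7% and 87.3% on replicating arrays. On quiescent arrays it was 96.4%, 98.4% and 85.6%. *Ins1* and *Ins2*, the insulin genes that define β-cells, were well above background on all 6 arrays, and the summed level of 6 cell cycle markers was 14.15 to 14.17 in replicating against 11.21 to 12.53 in quiescent samples. The summed level of 8 α-cell markers was also higher in the replicating group, at 14.53 to 16.49 against 12.71 to 14.29, a sum carried mostly by *Gcg*: 5 of the 8 had a ratio above 0 and 2 were called higher. The sum of 2 PP-cell markers was 12.14 to 13.16 against 11.25 to 11.89. Higher too was that of 8 mesenchymal markers, at 13.67 to 15.2 against 12.15 to 12.64. Acinar and immune marker sums were higher in the replicating sample of every preparation, but their groups overlapped. The acinar sum was 12.95, 16.35 and 15.38 in replicating against 11.95, 15.39 and 15.04 in quiescent samples. Duct and endothelial sums were lower in the replicating sample of every preparation, and the δ-cell sum had no steady direction. Single markers did not all follow these sums. Of 6 duct markers 5 had a ratio below 0, but 1 was called higher. Of 6 endothelial markers 3 had a ratio above 0 and 3 below, none called. Of 5 δ-cell markers 3 had a ratio above 0 and 2 below, and 2 were called higher, *Sst* among them. The part of these cells in the receptor values was not tested. In such pooled samples fewer cells of a type and less RNA per cell cannot be told apart.

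The receptors were seen through single 60-base probes, and the beginnings of those on which the results turn are shown because a gene's value is the value of that short stretch. The first 30 bases of each, 5′ to 3′, are in lower case, and no part is marked by capitals.
*Glp1r*, first probe: tgttgtaaagatgctcaaataccctctaag
*Glp1r*, second probe: aaggatatgttgttagaagagctagctgta
*Gipr*: ggatcaaaggagacagtcaagacaaaagga
*Ffar1*: ggtcctggacaggggacaatatgtgtgacc
*Gpr119*: actggccaaactgagcagacaccactgaaa
*Adra2a*: tagacacacaggaggggaaattatgtggaa
*Casr*: tgaagtcttttcctctgctctatccaccat

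No stretch of 20 bases in these probes occurred in a probe of another gene on the array. On the rat build rn4, as the array files give it, the first *Glp1r* probe lay at chr20:9263387-9263446 and the second at chr20:9259103-9259162, 4284 bases away on the same strand. The *Gipr* probe lay at chr1:78515592-78515651, *Ffar1* at chr1:85917624-85917683, *Gpr119* at chrX:135080175-135080234 and *Casr* at chr11:66084185-66084244. The files give no position for the *Adra2a* probe, and exon or UTR annotation of rn4 was not used here.

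All 12 probes were well above background on all 6 arrays, which held for 82.8% of named genes. Of the 10 receptors, 4 had a ratio above 0 and 6 below, and their median ratio was -0.17, against -0.00099 over all named genes. By preparation the receptors' median was -0.09, 0.27 and -0.51, so it changed sign between preparations, and it was 0.066 without preparation 3. None was called higher, and *Adra2a* alone was called lower.

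**Figure D1:**
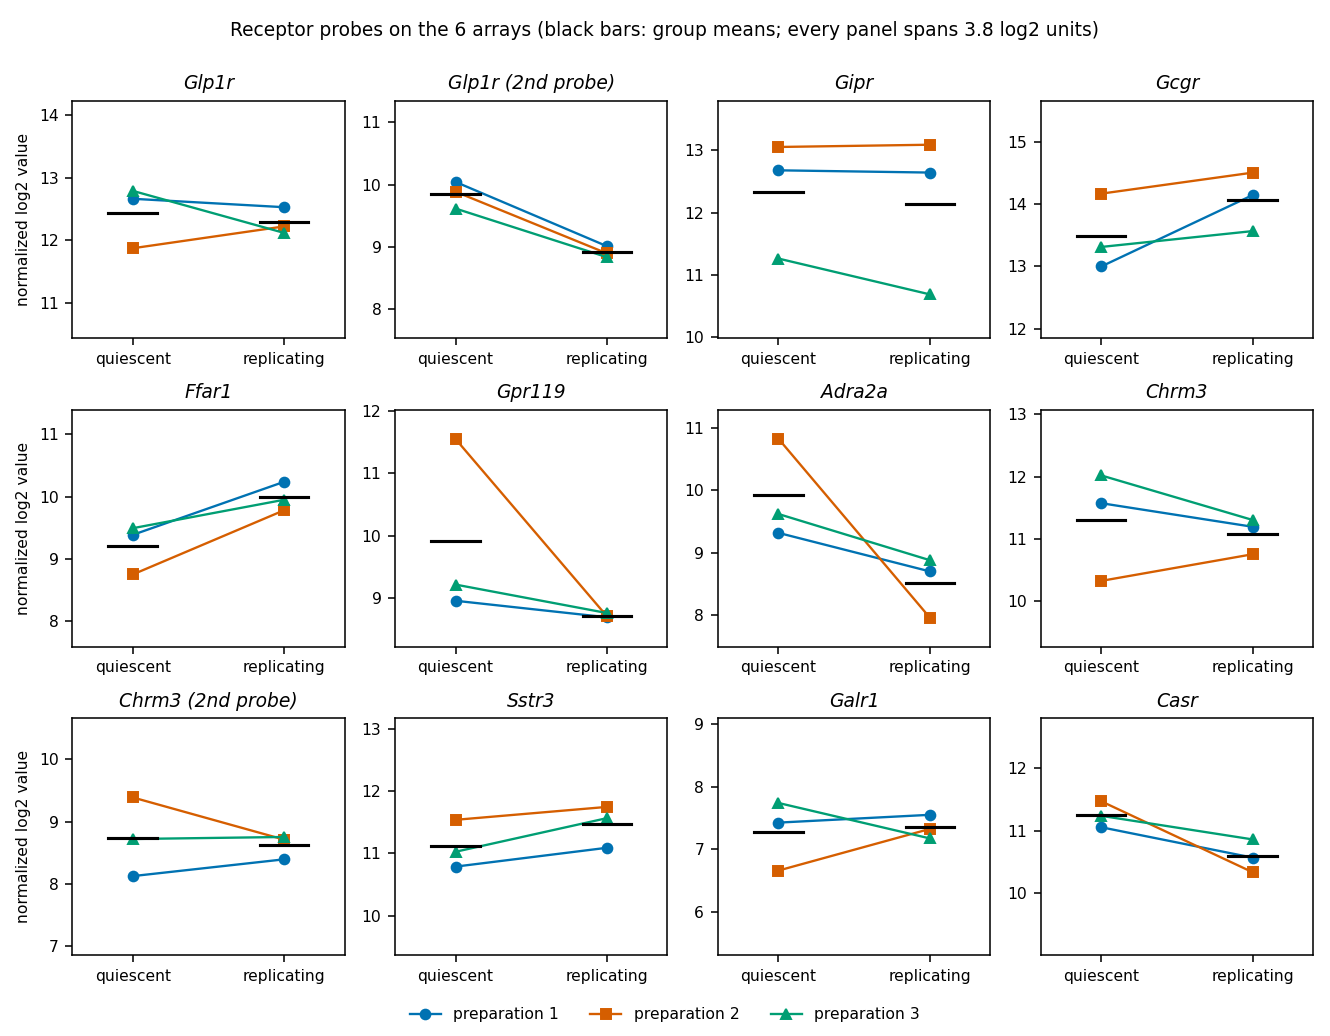
Normalized log2 value (vertical axis) of each receptor probe in the quiescent and replicating sample of each islet preparation, joined by a line, with black bars for group means. *Gpr119* and *Adra2a* have 1 high quiescent value each, both in preparation 2 (11.55 and 10.83), while *Gipr* is low in both samples of preparation 3.

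The class B hormone receptors, which bind peptides of the glucagon family, were not called. *Glp1r*, the GLP-1 receptor and the target of incretin drugs, read 12.53, 12.22 and 12.12 in replicating samples of preparations 1 to 3 and 12.66, 11.87 and 12.79 in quiescent samples by its first probe. The groups overlapped, and the quiescent values spanned the replicating ones. The log2 ratio was -0.15 (SE 0.35, limma adjusted p = 0.851), with a 95% confidence interval from -1.05 to 0.75 that holds a 2-fold lower level as well as no difference.

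The second *Glp1r* probe, which the files assign to a predicted non-coding transcript variant of the gene, read differently. It gave 9.01, 8.90 and 8.84 in replicating samples and 10.04, 9.89 and 9.62 in quiescent samples. All 3 replicating values lay below all 3 quiescent values, as for 6.23% of named genes with a value on every array. Its log2 ratio was -0.93 (SE 0.31, limma adjusted p = 0.475), a fold of 0.524 with a 95% confidence interval from -1.71 to -0.15 on the log2 scale, and just short of the size required for a call. The ratios by preparation were -1.03, -0.99 and -0.78, close to each other. The ratio of the second probe minus that of the first was -0.89, -1.34 and -0.11 in preparations 1 to 3, so both probes of *Glp1r* differed most in preparation 2 and little in preparation 3. With 3 pairs an exact test of that difference cannot reach 0.05, and none was made.

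*Gipr*, the receptor for the incretin GIP, varied mainly between preparations. Its replicating samples read 12.64, 13.09 and 10.69 and its quiescent samples 12.68, 13.05 and 11.26. Both samples of preparation 3 lay below the other 4. The ratio of replicating over quiescent was -0.19 (SE 0.32, limma adjusted p = 0.789), and by preparation -0.04, 0.04 and -0.57. Preparation accounted for 96.7% of the sum of squares of *Gipr* over the 6 arrays and the group for 1.08%, against medians of 38.4% and 24.3% over named genes. A share for preparation as high as that of *Gipr* was found in 54 of 17617 named genes (0.307%). The log2 difference of preparation 3 from the mean of the others was -1.89. Over 7 other ways of normalizing the arrays or treating outlier spots it ranged from -2.08 to -1.69. A recomputation with a normexp offset of 50 and the keeping of outlier spots returned the same -1.89, so neither adds a check. The F test of limma between preparations gave an adjusted p of 0.745. That test called 0% of named genes, and 1139 of 45598 probes had an unadjusted p of at most 0.05. With normexp and scaling to the 75th percentile it passed 307 probes at an adjusted p of 0.05, and *Gipr* had an adjusted p of 0.121 in limma. It was added after the values of *Gipr* had been seen, and serves as a description.

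*Gcgr*, the glucagon receptor, was higher in the replicating sample of every preparation without being called. Replicating samples read 14.14, 14.50 and 13.57 and quiescent samples 13.00, 14.17 and 13.31. The differences within preparations were 1.14, 0.34 and 0.25, but the groups overlapped. The log2 ratio was 0.58 (SE 0.35, limma adjusted p = 0.499, 95% confidence interval -0.31 to 1.47).

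**Figure D2:**
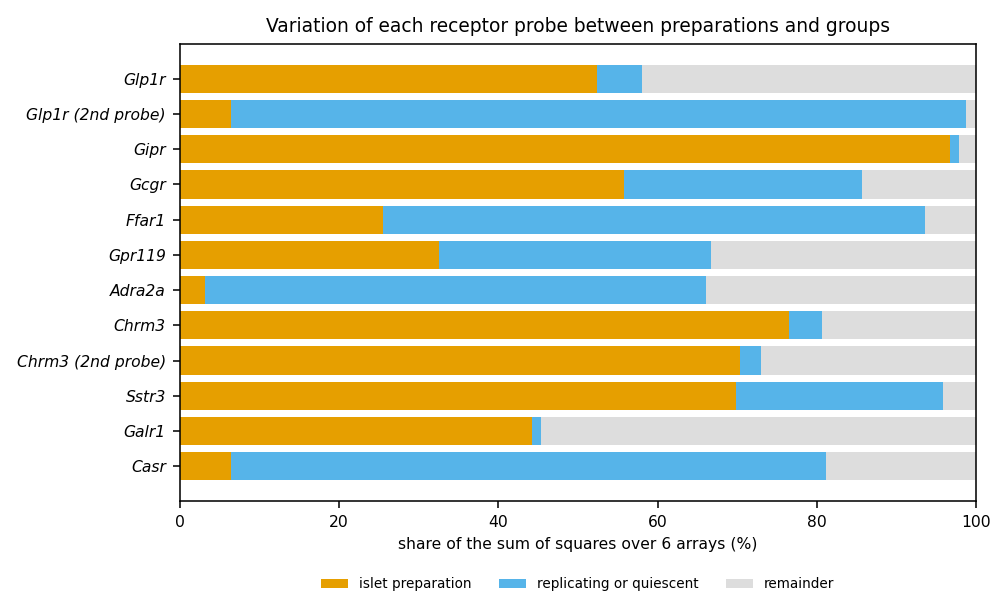
Share (%) of the sum of squares over the 6 arrays that lay between islet preparations, between replicating and quiescent samples, and in the remainder, for each receptor probe. Preparation takes 96.7% for *Gipr*, while the group takes 92.3% for the second *Glp1r* probe and 74.8% for *Casr*.

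The lipid receptors went opposite ways without being called. *Ffar1*, also known as GPR40, senses long-chain fatty acids and couples to Gq. It read 10.24, 9.78 and 9.95 in replicating samples and 9.39, 8.75 and 9.49 in quiescent samples. All 3 replicating values were above all 3 quiescent values, as for 10.6% of named genes with a value on every array. The log2 ratio of *Ffar1* was 0.78 (SE 0.32, limma adjusted p = 0.475), with preparation values of 0.85, 1.03 and 0.46. *Ffar1* was the only receptor of the 10 with non-overlapping groups in that direction.

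*Gpr119*, which binds lipid amides such as oleoylethanolamide and couples to Gs, read 8.69, 8.71 and 8.76 in replicating samples. Its quiescent samples read 8.96, 11.55 and 9.22, so that all 3 were above the replicating ones, and the value of preparation 2 was over 2 log2 units above the other quiescent values. The log2 ratio was -1.19 (SE 0.60, limma adjusted p = 0.476), and by preparation -0.26, -2.84 and -0.46. Without preparation 2 the ratio was -0.36, so most of the difference lay in preparation 2, whose quiescent array stood apart.

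The Gi-coupled receptors held the one call. *Adra2a*, the α2A-adrenergic receptor through which adrenaline shuts off insulin secretion, read 8.70, 7.96 and 8.88 in replicating samples and 9.32, 10.83 and 9.62 in quiescent samples. The groups did not overlap, with the replicating samples lower in 3 of 3 preparations. The log2 ratio was -1.41 (SE 0.55, limma adjusted p = 0.475), a fold of 0.377, with a 95% confidence interval from -2.80 to -0.02. Preparation 2 gave -2.87, against -0.62 and -0.74 in preparations 1 and 3. The call was lost without any 1 of the preparations: the ratio was -1.80 without preparation 1, -0.68 without preparation 2 and -1.74 without preparation 3. With 1 of 10 receptors called lower against 2.76% of named genes, the count is a single gene and is no result about the set.

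*Sstr3*, a somatostatin receptor, read 11.09, 11.75 and 11.57 in replicating samples and 10.79, 11.54 and 11.03 in quiescent samples. It was higher in the replicating sample of every preparation, by 0.30, 0.21 and 0.54, yet the groups overlapped because preparation 1 read lowest in both. The ratio was 0.35 (SE 0.31, limma adjusted p = 0.594). *Galr1*, a galanin receptor, had no steady direction, with 7.55, 7.33 and 7.17 in replicating and 7.43, 6.66 and 7.74 in quiescent samples. Its ratio was 0.07 (SE 0.37, limma adjusted p = 0.936), with preparation values of 0.12, 0.67 and -0.57.

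**Figure D3:**
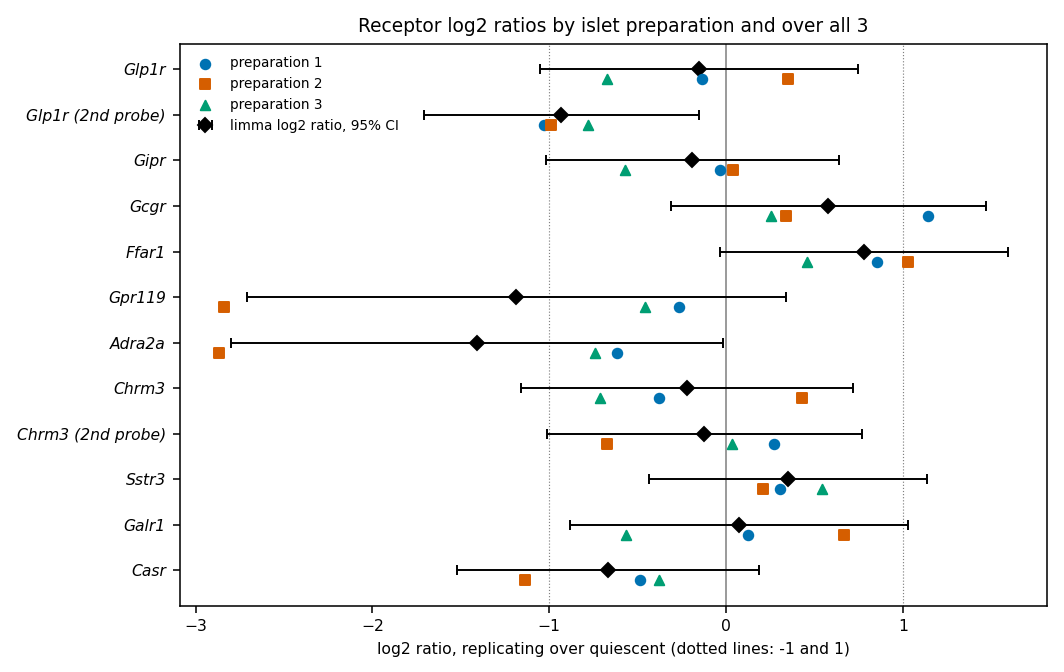
Log2 ratio of replicating over quiescent (horizontal axis) for the 12 receptor probes. Black diamonds with bars are the limma ratio and its 95% confidence interval and coloured points the 3 preparations. Only the intervals of *Adra2a* and the second *Glp1r* probe leave out 0, and preparation 2 gives the lowest value for *Gpr119*, *Adra2a* and *Casr*.

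The remaining receptors of the Gq group were not called. *Chrm3*, the muscarinic M3 receptor that carries the vagal acetylcholine signal, read 11.20, 10.76 and 11.30 in replicating and 11.57, 10.33 and 12.02 in quiescent samples by its first probe. The ratio was -0.22 (SE 0.37, limma adjusted p = 0.784). The second *Chrm3* probe, 1822 bases away, gave -0.12 (SE 0.35, limma adjusted p = 0.880). The *Chrm3* probes had opposite signs in every preparation: the first gave -0.38, 0.43 and -0.71, and the second 0.27, -0.68 and 0.03.

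*Casr*, the calcium-sensing receptor, read 10.57, 10.33 and 10.86 in replicating samples and 11.05, 11.47 and 11.24 in quiescent samples. All 3 replicating values lay below the quiescent values. The log2 ratio was -0.67 (SE 0.34, limma adjusted p = 0.475), and the preparations gave -0.49, -1.14 and -0.38. Without preparation 2 it was -0.43. In all, *Gpr119*, *Adra2a* and *Casr* were the 3 of 10 receptors whose replicating values lay wholly below the quiescent ones, by their first probes, against 6.23% of named genes. The 3 are not independent, with r of 0.748 to 0.957 with each other over the 6 arrays. Each had its largest difference in preparation 2, whose quiescent array stood apart, so the count is no result about the set.

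The spread of the receptors was wider among quiescent than among replicating samples for 10 of 12 probes, as it was for 85.9% of named genes. The median SD of the receptor probes was 0.247 in replicating and 0.581 in quiescent samples, and over named genes 0.221 and 0.663. The receptors thus shared a spread that the whole array showed.

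Similar profiles over the 6 arrays were sought among the receptors themselves and, separately, among 183 genes of the lists described below. These correlations are descriptions, because the 6 arrays are 3 pairs in 2 groups and share 1 slide. *Adra2a* and *Casr* had r = 0.957 with each other, *Glp1r* and *Galr1* 0.924, *Adra2a* and *Gpr119* 0.886, and *Glp1r* and *Chrm3* 0.881. Among the list genes, *Pde4a*, a phosphodiesterase that breaks down cyclic AMP, was most like both *Adra2a* (r = 0.962) and *Casr* (r = 0.911). Of the list genes *Gpr119* was most like *Adcy8*, a calcium-stimulated adenylyl cyclase (r = 0.989), and both were high on the quiescent array of preparation 2, where *Adcy8* read 10.46 against 8.21 to 8.54 on the other arrays. *Ffar1* was most like *Pde7a* (r = 0.959), *Glp1r* like *Plcb1*, a phospholipase C (r = 0.954), *Chrm3* like *Pde8b* (r = 0.977) and *Galr1* like *Prkcb*, a protein kinase C (r = 0.965). Several receptors had many such genes: r was over 0.9 with 19 list genes for *Gpr119*, 11 for *Ffar1*, 9 for *Galr1* and 5 for *Chrm3*. The share of all named genes with such an r was not computed, so these counts are no result about the lists. *Plcb2* also had r = 0.989 with *Gpr119*. For *Glp1r*, *Adra2a* and *Casr* the closest list gene was the only one over 0.9. The closest genes of *Gipr*, *Gcgr* and *Sstr3* stayed under 0.9: *Glp2r* at 0.868, *Sstr1* at 0.824 and *Mtnr1a* at 0.899. *Sstr1* was well above background on 1 of 6 arrays.

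Among the ligands of these receptors and related islet peptides, 13 genes in all, 4 were called higher in replicating samples and none lower, against 5.63% and 2.76% of named genes, and the median ratio was 0.35. That median was 0.053 with the processed signal scaled to the 75th percentile, 0.061 with normexp so scaled and 0.070 with cyclic loess. The median of all named genes was then -0.481, -0.282 and -0.028, against -0.00099 in the main setting. *Gcg*, the gene of glucagon and GLP-1, read 14.23, 15.52 and 16.40 in replicating samples and 12.88, 12.25 and 13.84 in quiescent samples. Its ratio was 2.39 (limma adjusted p = 0.457), with no overlap between groups. *Cck*, cholecystokinin, read 10.99, 11.13 and 11.23 against 8.77, 7.95 and 9.43, a ratio of 2.40 (limma adjusted p = 0.315). *Sst*, somatostatin, had a ratio of 1.74 and *Ppy*, pancreatic polypeptide, of 1.21. *Gcg*, *Sst* and *Ppy* define α-, δ- and PP-cells and were also in those marker lists. Neither *Gip* (-0.71) nor *Gal*, galanin (0.35), was called.

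Of 54 other receptors of islets, 1 was called higher and 2 lower, against 5.63% and 2.76% of named genes. The median ratio of the 54 was -0.13. *Adora2a*, an adenosine receptor coupled to Gs, had a ratio of 1.01, while *Adra1a*, an α1-adrenergic receptor, had -1.29 and *Sstr4*, a somatostatin receptor, -1.10. The adjusted p in limma was 0.475 for all 3. *Adra1a* read 9.79, 10.97 and 9.40 in replicating samples and 12.12, 12.22 and 9.69 in quiescent samples, so its groups overlapped, with a small difference in preparation 3.

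Of 42 genes of Gs and cyclic AMP signalling, 2 were called higher and 2 lower, against 5.63% and 2.76% of named genes. The median ratio of the 42 was 0.28. *Adcy7*, an adenylyl cyclase, read 9.08, 7.74 and 8.85 in replicating and 7.61, 6.68 and 7.48 in quiescent samples, a ratio of 1.30 (limma adjusted p = 0.475). *Pde7a* had a ratio of 1.33, and *Pde4b*, at 0.98, was just short of the size for a call. *Adcy4*, another adenylyl cyclase, had -1.61 and *Pde3a*, a phosphodiesterase for cyclic AMP and cyclic GMP, -1.13. With the median over its probes *Pde3a* had -0.40 and was not called. *Gnas*, the gene of Gs itself, had -0.10 and *Creb1* -0.16, neither called. Of 13 CREB target genes, none was called and the median ratio was 0.25, which was -0.74 in preparation 3.

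Of 10 genes of Gi and Go signalling, only *Gpsm1*, which binds Gi in its resting form, was called lower, against 2.76% of named genes. Its ratio was -1.08 (limma adjusted p = 0.475). The preparations gave -0.88, -0.79 and -1.57, and all replicating values lay below all quiescent values. The list's median was -0.27, and by preparation 0.32, -0.65 and -0.26. Without preparation 2 it was 0.025.

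The median of 23 genes of Gq and phospholipase C signalling was 0.35. Of these, 3 were called higher and none lower, against 5.63% and 2.76% of named genes. They were *Gnaq*, the gene of Gq (1.49), *Itpr1*, the calcium channel of the internal stores that opens on inositol trisphosphate (1.47), and *Prkcd*, a protein kinase C (1.43). For each of them preparation 2 gave the largest difference, 2.38 to 2.47, and preparation 3 the smallest, 0.23 to 0.58. Without preparation 2 the ratios were 1.05, 0.98 and 0.90, and the list's median was 0.067.

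The array held 29 regulators of the receptors, which are RGS proteins that end G protein signals, receptor kinases, arrestins and accessory proteins. Of these, 3 were called higher and none lower, against 5.63% and 2.76% of named genes. *Rgs3* read 12.74, 12.95 and 12.40 in replicating and 10.25, 10.73 and 10.75 in quiescent samples. Its ratio was 2.12 (limma adjusted p = 0.303), with preparation values of 2.49, 2.22 and 1.65. *Rgs12* had 1.54 and *Grk6*, a kinase that marks active receptors for arrestin, 1.17. *Rgs2*, which acts on Gq, had 0.98 (limma adjusted p = 0.475), just short of the size for a call. The median of the regulators was 0.34.

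**Figure D4:**
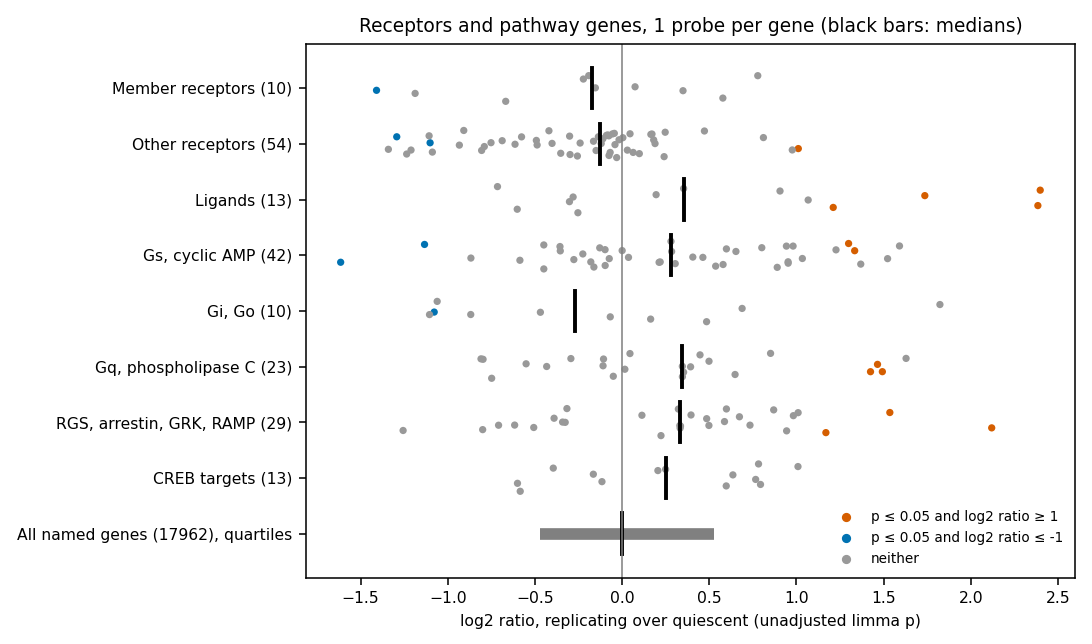
Log2 ratio of replicating over quiescent (horizontal axis), 1 probe per gene, for the 10 receptors and 7 lists of pathway genes, with black bars for medians and a grey bar for the quartiles of all named genes. Coloured points are genes called higher or lower, and the called ligands, Gq genes and regulators all lie to the right of 0.

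Among 9 β-cell markers, *Mafa*, a transcription factor of the insulin genes, was called lower, as were 2.76% of named genes. Its ratio was -1.01 (limma adjusted p = 0.475). *Pdx1* had -0.76, *Ins1* 0.25, *Ins2* 0.42 and *Iapp* 0.91, none of them called. *Iapp* was higher in the replicating sample of every preparation, by 0.55, 1.88 and 0.29. For *Ins2* the sign differs from the authors' quantitative PCR, in which insulin was significantly lower in replicating β-cells. The array ratio of *Ins2* was uncertain in sign (SE 0.34, limma adjusted p = 0.567). Its preparations gave 0.40, 0.87 and -0.008. Of the 9, 6 had a ratio below 0, and the median was -0.56. *Mafa*, *Ucn3* and *Slc2a2* lay wholly below the quiescent values, as did 6.23% of named genes with a value on every array. The summed level of the β-cell markers overlapped between the groups, at 17.93 to 18.28 in replicating and 17.24 to 18.42 in quiescent samples, while that of the α-cell markers did not. The insulin genes carry most of the β-cell sum. Whether the receptor ratios followed the β-cell or the α-cell share of the samples was not tested.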

How the data were processed

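RNA of 6 sorted samples was amplified as a whole transcriptome, labelled with Cy3 and hybridized to 1-colour Agilent arrays on 1 slide. The scanner files deposited by the authors hold intensity values per spot, not normalized between arrays. The log2 values analysed here, deposited by the authors alongside, had been background-corrected by normexp and quantile normalized. They differed by at most 0.000245 from a recomputation with a normexp offset of 50. Outlier-marked spots were set to missing and spots of a probe averaged. Lists took 1 probe per gene, that of highest mean over all 6 arrays, and both probes of a receptor are reported. Each probe was tested with limma 3.58.1 in R 4.3.3, with the islet preparation as a block and Benjamini-Hochberg adjustment over 45598 probes. The script was tested on simulated data. The pairing comes from the labels, which give each preparation 1 sample of either group. Deviations of paired arrays from group means had r of 0.0561, 0.242 and 0.258 across probes. All receptors were named, and from each pathway list up to 5 genes with an unadjusted p of at most 0.05 and 1 sign in all preparations, besides β-cell markers and the genes most alike in profile. *Gip*, *Gal*, *Gnas* and *Creb1* were added for their role after their values were seen. Members and lists were chosen with earlier results of these data known. The precision is limited by 3 arrays per group.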

Additional observations from a re-analysis of the deposited data

How the results depend on the processing

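Counts of calls, list medians and log2 ratios were recomputed under 14 alternatives, those of the second *Glp1r* and *Chrm3* probes under 13. The ratios of *Gcgr*, *Ffar1*, *Gpr119*, *Adra2a*, *Sstr3* and *Casr* kept their sign in all of them, and *Adra2a* missed the call in 6. For these single-probe genes several alternatives could only return the main ratio, so the sign was fixed there beforehand. They were the normexp offset of 50, outlier spots kept and only probes well above background. Leaving out the block, a trend in the variance and the median over a gene's probes did the same. *Cck*, *Gcg* and *Rgs3* stayed called in all 14, while *Mafa* and every other called list gene named above missed the call without preparation 1. Scaling to the 75th percentile moved the median of all named genes to -0.282 with normexp and to -0.481 with the processed signal, and calls are read relative to that. With normexp so scaled, 719 probes passed an adjusted p of 0.05, 885 genes were called higher and 1776 lower, and 2 receptors were called lower (*Adra2a* and *Gpr119*). The medians of other receptors and Gq genes were then -0.58 and -0.155, *Gipr* was 0.027, *Galr1* -0.465 and *Slc30a8* 0.126. With the processed signal, 367 genes were called higher, 883 lower and 0 receptors lower; those medians were -0.887 and -0.294, *Gipr* 0.027, *Galr1* -0.877 and *Slc30a8* 0.133. Cyclic loess gave 204 probes with an adjusted p under 0.05, 751 genes lower and 2 receptors lower. A trend in the variance gave 61 probes and 0 receptors lower, and a normexp offset of 0 also 0 receptors lower. The median over a gene's probes gave 34 of 17962 genes with an adjusted p under 0.05, -0.226 for other receptors and 0.461 for *Slc30a8*. With only probes well above background the ligand median was 0.906. The cause of these shifts was not tested.

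Without the replicate block that pairs the samples, 99 probes passed an adjusted p of 0.05 and 255 genes were called lower, and *Adra2a* was still the only receptor called. Leaving out 1 preparation at a time gave 0 to 84 probes with an adjusted p under 0.05 (84 without preparation 2), 286 to 2460 genes called higher and 24 to 1830 lower (the fewest without preparation 1, the most without preparation 3), and 0 receptors lower. The ratio then ranged from -0.404 to 0.107 for *Glp1r*, -0.305 to 7.93e-05 for *Gipr*, -0.547 to 0.024 for *Chrm3*, -0.322 to 0.151 for its second probe, -0.222 to 0.396 for *Galr1*, -0.0055 to 0.424 for *Ins1* and -0.222 to 0.112 for *Slc30a8*. With 3 pairs, a receptor whose confidence interval holds 0 may differ between the groups by as much as that interval allows.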
